A study of Mus musculus with 2 samples.

Results

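The miR-25, miR-92 and miR-363 seed family was followed through small RNA libraries of the mouse cerebral cortex. Its members were the 6 miRNA genes Mir25, Mir32, Mir92-1, Mir92-2, Mir92b and Mir363, chosen by gene symbol, of 2202 miRNA genes in the deposited tables. The tissue was the left cerebral cortex of 2 female mice of strain B6CASTF1/J, aged 2 months and untreated as far as the labels say. The strain name stands for the first generation of a cross between C57BL and the wild-derived CAST mouse, and the tables do not separate the parental alleles. Each animal gave 1 microRNA-seq library of RNA under 30 nucleotides, and the animals are called animal 1 and animal 2 after the replicate numbers in the labels. The labels number the females separately but give both the same donor identifier. With 1 group there was no contrast, and no test or p-value is given.

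A miRNA guides repression of messenger RNAs that pair with its seed, bases 2 to 8 from its 5′ end, so miRNAs with the same seed can share targets. Most members of this family are transcribed together with other miRNAs in clusters that promote cell growth. Mir25 is the last hairpin of the cluster with Mir106b and Mir93 inside Mcm7, which encodes a subunit of the replicative DNA helicase. Mir92-1 closes the miR-17-92 cluster, known as an oncogenic cluster and as a regulator of progenitor expansion in the developing cortex. Mir92-2 and Mir363 close its X-linked copy, the miR-106a-363 cluster. In the brain, miR-92b is known from neural stem and progenitor cells, where it restrains the intermediate progenitor factor Tbr2.

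The sequences below show what unites the family and where its members part. They are the RefSeq mature miRNAs on GRCm38.p6, written 5′ to 3′ with the seed in capitals.
miR-92b-3p: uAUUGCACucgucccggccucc
miR-92a-3p: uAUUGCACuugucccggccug
miR-25-3p: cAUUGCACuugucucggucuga
miR-32-5p: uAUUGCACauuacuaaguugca
miR-363-3p: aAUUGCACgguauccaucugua
miR-367-3p: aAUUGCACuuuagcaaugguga
Of 1738 mature entries in the RefSeq table, 7 carried the seed AUUGCAC, whose complementary site in a target is GUGCAAU. Mir92-1 and Mir92-2 both encode miR-92a-3p, so these 7 entries held 6 distinct sequences. The only one from outside the 6 chosen genes was miR-367-3p. Its gene Mir367, from a cluster of pluripotent cells, had 0 counts in both animals, which allows up to 3 counts, or 0.679 and 1.32 CPM. Past the seed the members differed to unequal degrees. Compared with miR-92a-3p over 21 bases, counting positions from 1 at the 5′ end, miR-92b-3p differed at 2, by U10C and G21C. The miR-25-3p sequence differed at 3, by U1C, C14U and C18U. The sequences of the other members were farther away, with 10 differences in miR-32-5p and 11 in miR-363-3p. The seed-bearing mature miRNA lay in the 3p arm of the hairpin in 5 members and in the 5p arm in Mir32. Counts are per gene and do not separate the arms.

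The hairpins of both miR-92a genes are shown because their shared stretch bears on every value given for them. The longest run they have in common, 22 bases in capitals, contains the whole of miR-92a-3p, while their 5p arms differ.
Mir92-1: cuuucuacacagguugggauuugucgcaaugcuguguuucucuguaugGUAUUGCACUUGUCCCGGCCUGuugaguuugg
Mir92-2: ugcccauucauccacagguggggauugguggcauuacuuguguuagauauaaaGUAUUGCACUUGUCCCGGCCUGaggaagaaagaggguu
For the other 4 members, no mature entry was found at a second locus of the RefSeq table, and the longest stretch shared with any other hairpin was 11 bases in Mir32, 12 in Mir25 and Mir92b, and 14 in Mir363. These are exact stretches, and reads that map between members with mismatches were not examined. The hairpins of Mir92b and Mir25, the highest member and one of the low ones, are given next with the seed-bearing mature miRNA in capitals.
Mir92b: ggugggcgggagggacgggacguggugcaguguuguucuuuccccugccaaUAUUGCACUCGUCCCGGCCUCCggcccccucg
Mir25: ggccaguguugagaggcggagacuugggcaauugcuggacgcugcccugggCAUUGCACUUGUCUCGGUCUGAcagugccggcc
The hairpin of Mir92b was the richest in G and C of the family, at 67.5%, and 4.88% of the 1005 RefSeq hairpins exceeded it. Its predicted folding energy was also the lowest of the 6, at -52.7 kcal/mol. Mir25 followed at 63.1% and Mir32 was the poorest at 38.6%. The order of GC content was not the order of levels, since Mir25 was far below Mir92-1, whose hairpin has 47.5%.

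The deposited values were raw counts, 4415759 at miRNA genes in animal 1 and 2279562 in animal 2, and each level is in CPM, counts per 1000000 counts at miRNA genes. The unmapped share was higher in animal 2, at 47.1% of its reads, than in animal 1, at 23.4%. Intervals are exact 95% Clopper-Pearson intervals and speak of counting error alone, since PCR copies cannot be told from independent molecules here. As a check of the tissue, 7 of 10 neuron genes and 5 of 5 glial genes reached 2 CPM in both animals. The share over all 2202 genes was 18.8%. Summed levels in animal 1 and animal 2 were 50249 and 98970 CPM for neurons and 10430 and 15035 CPM for glia. Mir132 alone held 24389 and 79576 CPM of the neuron sum, so the difference between these sums does not show a rise across that list. The glial sum was mostly Mir29a, at 8412 and 10012 CPM. Neuronal Mir124a had at most 11 counts at any of its 3 copies. Among 14 genes of liver, striated muscle and pluripotent cells, 2 reached 2 CPM in both and 8 had 0 counts in both, with summed levels of 85.4 and 54.4 CPM. The 2 were Mir122, at 60.9 and 36.8 CPM, and Mir206, at 23.6 and 16.2 CPM. The members Mir25, Mir92-2, Mir32 and Mir363, given below, were lower than Mir122 in both animals.

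Among reads counted at genes, the family was almost wholly Mir92b. The 6 genes took 0.914% of counts in animal 1 (interval 0.905 to 0.922%) and 0.830% in animal 2 (0.818 to 0.841%), a mean of 0.872% ± 0.0594 (SD, n = 2). Of these family counts, Mir92b supplied 91.7% in animal 1 and 93.4% in animal 2. Mir92-1 supplied 7.51% and 5.74%, and each of the other 4 genes supplied less than 1% in both animals. These shares cover counted reads only. Reads of miR-92a-3p fit both Mir92-1 and Mir92-2, and any that went uncounted would lower the share of Mir92b. Without Mir92b, the remaining 5 genes held 0.0757% and 0.0551% of library counts.

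**Figure D1:**
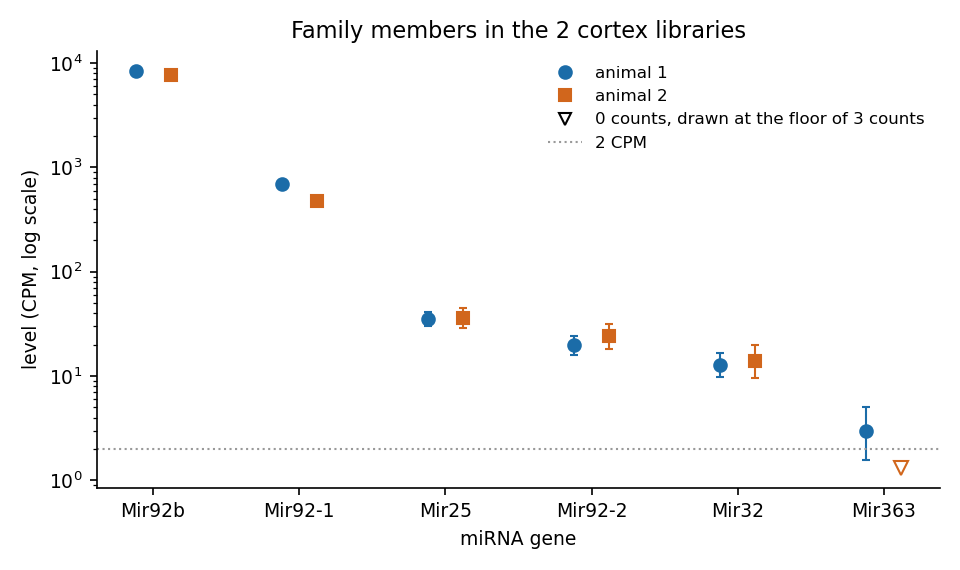
Level of each member in CPM on a log scale, with 1 point per animal and bars for the exact 95% counting interval; an open triangle marks 0 counts, drawn at the floor of 3 counts. Mir92b sits at 8378 and 7745 CPM, and Mir363 is the only member with a library at 0.

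Members spanned several orders of magnitude, and their order was the same in both animals: Mir92b, Mir92-1, Mir25, Mir92-2, Mir32 and Mir363. For all 5 neighbouring pairs in this order, the exact interval of the first gene's share of the pair's counts lay above 50% in both animals. The closest pairs were Mir25 over Mir92-2, at 1.79-fold in animal 1 (interval 1.37 to 2.36) and 1.51-fold in animal 2 (1.06 to 2.16), and Mir92-2 over Mir32, at 1.53-fold (1.08 to 2.17) and 1.72-fold (1.09 to 2.75). No pair of neighbours had overlapping values between the animals. Dividing each level by the length of its hairpin left the order of the mean levels unchanged. The places of Mir92-1 and Mir92-2 are uncertain, because reads of miR-92a-3p fit both genes and how the authors counted reads that map to several places at genes is not stated in any source used here. Such reads have an entry of their own, with 48.9% (animal 1) and 48.2% (animal 2) of mapped reads. These shares take that entry as separate from the gene counts, since the total of mapped reads adds both.

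At the threshold of 2 CPM in both animals, 5 of the 6 members were detected, all but Mir363. Of all 2202 genes, 18.8% reached that threshold. All 6 members had counts in at least 1 animal, whereas 66.1% of all genes had 0 in both. None had a count on the opposite strand, none has an annotated gene opposite it, and their counts were the same in the column that ignores strand.

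Mir92b, the member best known from neural progenitors, had 36995 counts in animal 1 and 17655 in animal 2, or 8378 CPM (interval 8293 to 8463) and 7745 CPM (7632 to 7860). By counted reads, it ranked 25th of all miRNA genes in animal 1 and 26th in animal 2. How reads that map to several places would change these ranks was not measured. The mean level of Mir92b was 8061 ± 448 CPM (SD, n = 2). Within each library its count was 12.2 times that of Mir92-1 in animal 1 and 16.3 times in animal 2. The gene (ENSMUSG00000076255.2) lies on chromosome 3 at 89227116 to 89227198, minus strand, on mm10. GENCODE M21 places it in no other gene, and the nearest is Mtx1, a mitochondrial outer membrane import gene on the same strand at a distance of 28 bases. Mir92b has no cluster partner. The genes closest to it in level, by distance over log2(CPM + 1) in the 2 libraries, were Mir30d at 8361 and 8377 CPM and Mir324 at 7172 and 7433 CPM.

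Mir25 was a minor product of a cluster that was itself well represented. It had 156 counts in animal 1 and 83 in animal 2, or 35.3 CPM (interval 30.0 to 41.3) and 36.4 CPM (29.0 to 45.1), with a mean of 35.9 ± 0.765 CPM (SD, n = 2). Its values in the animals lay within each other's counting interval. Its neighbour Mir93, a miRNA of the miR-17 seed, had 1297 and 1198 CPM, which was 36.7-fold (31.3 to 43.3) and 32.9-fold (26.4 to 41.4) the count of Mir25. Mir106b, the first hairpin and of the same miR-17 seed, had 271 and 252 CPM, or 7.68-fold (6.49 to 9.13) and 6.93-fold (5.50 to 8.83) the count of Mir25. Mir25 thus held 2.20% of the cluster's counts in animal 1 (1.87 to 2.57%) and 2.45% in animal 2 (1.96 to 3.03%), and Mir93 held 80.9% and 80.6%. The gene (ENSMUSG00000065394.1) lies on chromosome 5 at 138165321 to 138165404, minus strand, 414 bases after the start of Mir106b. Among Mcm7 transcripts it overlaps exons only of the retained-intron type. The genes nearest to Mir25 in level were Mir486, at 33.5 and 38.2 CPM, and Mir142, at 31.7 and 35.1 CPM.

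Mir92-1 was the most abundant product of the miR-17-92 cluster in both animals, with the limit on miR-92a given above. It had 3030 counts in animal 1 and 1085 in animal 2, or 686 CPM (interval 662 to 711) and 476 CPM (448 to 505), with a mean of 581 ± 149 CPM (SD, n = 2). Mir17, which founds the miR-17 seed group, followed at 289 and 368 CPM. Mir20a, of the same seed, had 96.0 and 84.7 CPM, and Mir18 had 16.3 and 11.8 CPM. The miR-19 genes of the cluster, regarded as its main oncogenic part, were nearly absent from the counts. Mir19a had 0 counts in both animals and Mir19b-1 had 0 and 1. Set against a floor of 3 counts per library for Mir19a, the count of Mir92-1 was 1010-fold higher in animal 1 and 362-fold higher in animal 2. These ratios to the floor are not lower limits of an interval. The hairpins of Mir19b-1 and Mir19b-2 share a stretch of 25 bases, and reads within it fit both. The longest stretch that Mir19a shares with another hairpin is 13 bases. Exact stretches do not measure mapping with mismatches, and how reads of these genes mapped was not tested. All 6 hairpins lie in an exon of the noncoding host Mir17hg on chromosome 14, plus strand. Mir92-1 (ENSMUSG00000076062.1) is at 115044427 to 115044506, 756 bases from the first hairpin. The genes nearest to Mir92-1 in level were Mir467d, at 680 and 484 CPM, and Mir1843b, at 693 and 435 CPM.

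**Figure D2:**
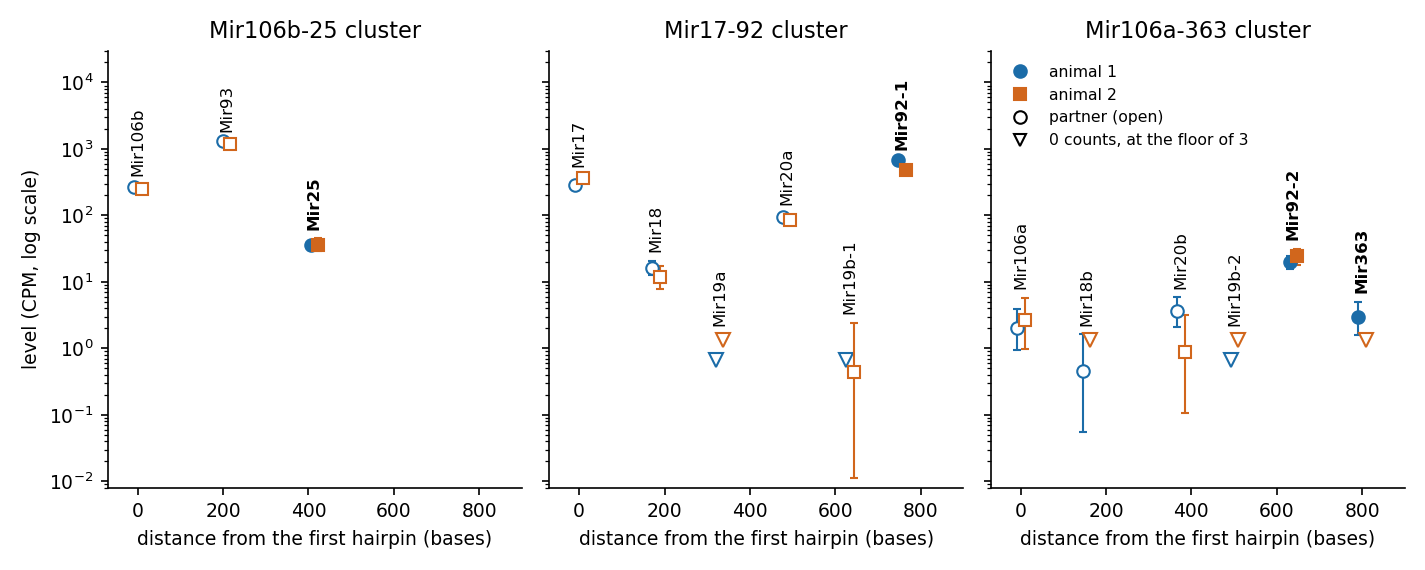
Level in CPM on a log scale against the distance of each hairpin from the first of its cluster in bases, along the direction of transcription, with bars for exact 95% counting intervals; filled symbols are family members and triangles mark 0 counts. Mir92-1 is the highest point of its cluster and Mir92-2 of its own, whereas Mir25 is the lowest of the 3 genes in its cluster.

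The X-linked cluster gave few counts, most of them at Mir92-2. All 6 of its genes together had 127 counts in animal 1 and 63 in animal 2, or 0.00288% and 0.00276% of library counts. Mir92-2 had 87 and 55 counts, or 19.7 CPM (interval 15.8 to 24.3) and 24.1 CPM (18.2 to 31.4), with a mean of 21.9 ± 3.13 CPM (SD, n = 2). That was 68.5% of the cluster's counts in animal 1 (59.7 to 76.5%) and 87.3% in animal 2 (76.5 to 94.4%). The count of Mir92-1, the other gene for miR-92a-3p, was 34.8-fold that of Mir92-2 in animal 1 (28.1 to 43.6) and 19.7-fold in animal 2 (15.0 to 26.4). These ratios are of counted reads and do not show how the reads of miR-92a-3p divide between the genes.

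Mir363, the last hairpin of the X-linked cluster, was the lowest member. It had 13 counts in animal 1, or 2.94 CPM (interval 1.57 to 5.03), and 0 in animal 2 (interval up to 1.62 CPM). The floor of 3 counts is 1.32 CPM in animal 2. Set against that floor, the level in animal 1 was 2.24-fold higher, and the exact interval of the log2 ratio of CPM reached down to 0.65. Of its partners, Mir20b had 16 and 2 counts, Mir106a 9 and 6, Mir18b 2 and 0, and Mir19b-2 0 in both. Mir92-2 (ENSMUSG00000065613.1) lies on chromosome X at 52741838 to 52741928 and Mir363 (ENSMUSG00000070106.1) at 52741693 to 52741767, both on the minus strand. Neither lies in another annotated gene. The noncoding transcript Kis2, which overlaps the first hairpin Mir106a, lies 635 bases from Mir92-2 and 796 bases from Mir363.

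Mir32 was low but counted in both animals. It had 57 counts in animal 1 and 32 in animal 2, or 12.9 CPM (interval 9.78 to 16.7) and 14.0 CPM (9.60 to 19.8), with a mean of 13.5 ± 0.799 CPM (SD, n = 2). The values lay within each other's counting interval. The gene (ENSMUSG00000065544.1) lies alone in an intron of Tmem245, a transmembrane protein gene, on chromosome 4 at 56895229 to 56895298, minus strand.

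Of the 5 detected members, 2 differed between the animals beyond counting error, both higher in animal 1. Here a gene is outside counting error when the exact 95% interval of animal 1's share of its counts misses the share of the library totals. Of all 415 genes at 2 CPM or more in both animals, 56.6% were outside, 27.0% higher in animal 1 and 29.6% higher in animal 2. Each animal is 1 library, so animal and library preparation cannot be told apart. The log2 ratio of animal 1 over animal 2, on the CPM + 1 scale with counting intervals for the ratio of CPM without the added 1, was 0.53 at Mir92-1 (counting interval 0.43 to 0.63) and 0.11 at Mir92b (0.09 to 0.14). The difference at Mir92b was small beside the median absolute log2 ratio of 0.32 over the 415 genes, and 31.1% of these genes had a larger absolute ratio than Mir92-1. Mir25 at -0.04 (-0.44 to 0.36), Mir92-2 at -0.28 (-0.80 to 0.22) and Mir32 at -0.11 (-0.77 to 0.55) were inside counting error. Mir363, below the threshold, was outside counting error on its 13 and 0 counts. Of the 746 genes with a count in either animal, 34.3% were outside, and 16.2% were outside and higher in animal 1. The median log2 ratio was 0.04 over the 6 members, also with Mir363 at its bound, and 0.05 over the 746 genes.

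**Figure D3:**
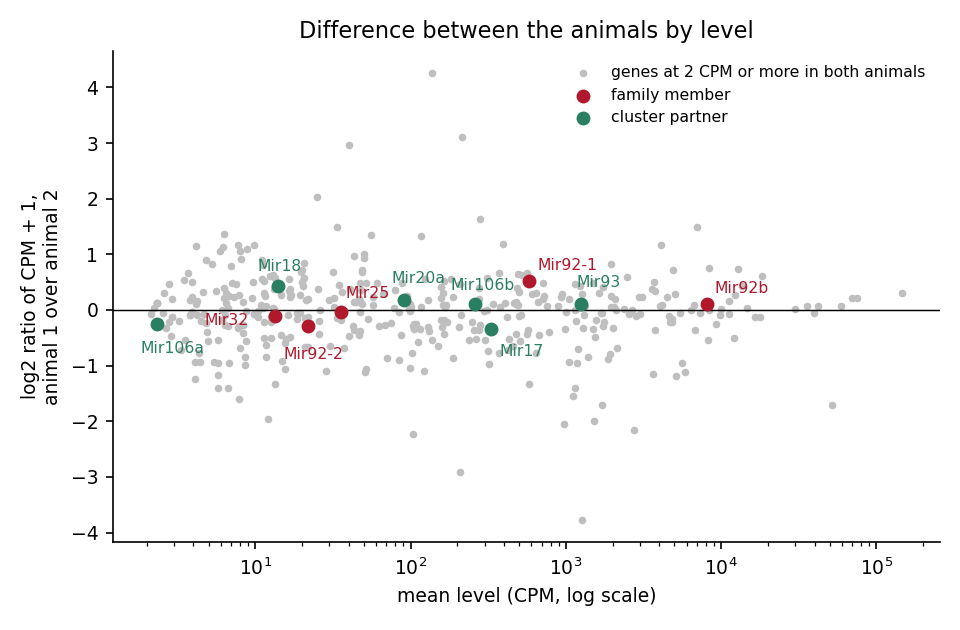
Log2 ratio of CPM + 1, animal 1 over animal 2, against mean level in CPM on a log scale for the 415 genes at 2 CPM or more in both animals, with family members in red and cluster partners in green. The 5 members shown lie between -0.28 and 0.53, inside the spread of the other genes.

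Proportions of counted reads within the miR-17-92 cluster differed between the libraries, with the limit on miR-92a given above. Mir92-1 was higher in animal 1 and Mir17 higher in animal 2, where the log2 ratio of Mir17 was -0.34 (-0.47 to -0.22), outside counting error. The count of Mir92-1 was 2.37-fold that of Mir17 in animal 1 (2.22 to 2.53) and 1.29-fold in animal 2 (1.18 to 1.42), and these intervals do not overlap. Mir92-1 accordingly held 63.1% of the cluster's counts in animal 1 (61.7 to 64.4%) and 50.6% in animal 2 (48.5 to 52.7%). In the X-linked cluster the intervals of the share at Mir92-2, given above, also did not overlap, though narrowly and on few counts. In the Mcm7 cluster the intervals of the share at Mir25 overlapped between the animals. Of the 11 cluster partners, 6 were detected, of which 4 were inside counting error, Mir17 was higher in animal 2 and Mir93, at a log2 ratio of 0.11, was higher in animal 1. Marker lists differed between the animals as well, given here as animal 1 and then animal 2. Of 3 erythroid genes, Mir451a at 385 and 43.9 CPM and Mir144 at 40.8 and 9.21 CPM were higher in animal 1 beyond counting error, while Mir486 had 33.5 and 38.2 CPM, inside it. No erythroid gene was at 0, and the sum, mostly Mir451a, was 459 and 91.2 CPM. Of the 5 glial genes, 4 were higher in animal 2 beyond counting error, among them Mir21a at 376 and 1562 CPM and Mir219a-2 at 634 and 1667 CPM. Of the 7 detected neuron genes, 4 were higher in animal 2 and 2 in animal 1. The part of these lists in the differences at Mir92-1, Mir92b and Mir363 was not tested.

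**Figure D4:**
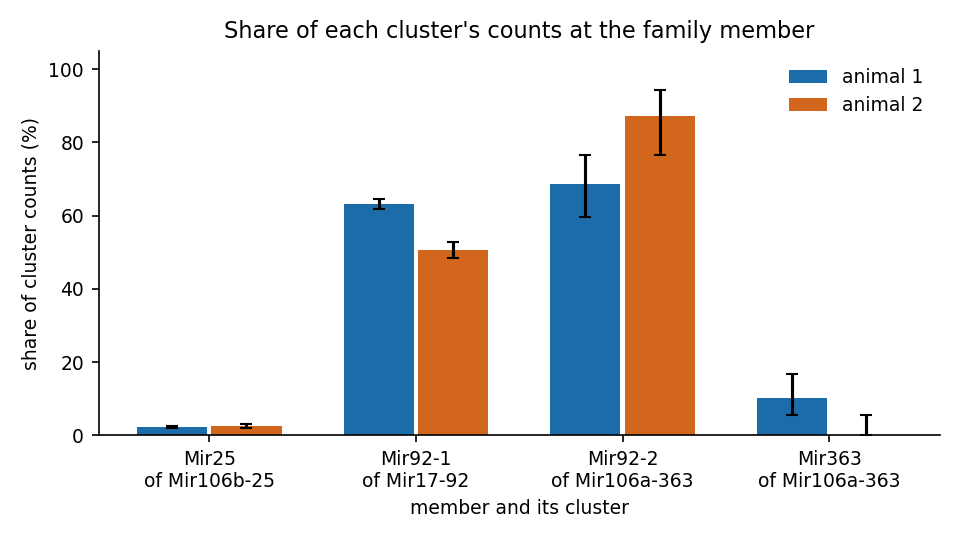
Share of each cluster's counts at the family member in percent, with 1 bar per animal and exact 95% counting intervals. Mir92-1 holds 63.1% in animal 1 and 50.6% in animal 2, while Mir25 stays at 2.20% and 2.45%.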

How the data were processed

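MicroRNA-seq libraries from 2 animals of 1 group were analysed. The authors deposited raw read counts per miRNA gene, on build mm10 with annotation GENCODE M21 according to their metadata. No source used here states the aligner, counter, trimming or filters. The 3 count columns carry no header, so the values had to show their roles, and the strand-assigned column holding nearly all gene counts was used. The 4 summary entries were left out of totals, and reads at no listed gene were 8.52% and 9.28% of mapped reads.

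All 2202 identifiers matched GENCODE M21. All 17 listed miRNA genes, members and partners, matched a RefSeq hairpin (GRCm38.p6) with the same start and end. Ratios used log2(CPM + 1). Detection required 2 CPM in each library, equal to 8.83 (animal 1) and 4.56 (animal 2) counts. Calls of counting error ran over the whole table. They were tried on simulated counts that held counting error alone, which does not cover spread between animals or PCR copies. Tools were Python 3.11.15, pandas 2.3.3, scipy 1.17.1, R 4.3.3, edgeR 4.0.16 and DESeq2 1.42.0 (scaling factors only) and RNAfold 2.7.2.

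The members and lists were chosen with earlier results of these data known. Genes named were the members, cluster partners, genes with the same seed, the 2 genes nearest in level to each of the 3 most abundant members, and the neuron, glia, erythroid and off-tissue marker lists. Alternatives were TMM and DESeq2 scaling, the unstranded column, totals without Mir139, mapped reads as denominator, other thresholds and pseudocounts, joined miR-92a genes and leaving out either library.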

Additional observations from a re-analysis of the deposited data

Results flagged for a closer look

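Reads mapping to several places are in an entry used here only in the total of mapped reads. It holds 48.9% (animal 1) and 48.2% (animal 2) of that total, taken as separate from the gene counts. How many of them came from miR-92a-3p, the mature miRNA with identical sequence at Mir92-1 and Mir92-2, was not measured.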

How the results depend on the processing

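Alternatives gave 113 recomputed values, of which 97 moved by less than the spread between the animals or stayed inside the counting interval or within 1.5 times the count, and 0 changed direction at a member outside counting error. With 2 animals, leaving out either library always moves a mean by less than that spread, so those values could not count as moved. Members and partners have equal counts in the unstranded column, so shares within the family or a cluster could not move there. The family share, 0.872% of counts, became 0.932% with the unstranded column and 1.02% with Mir139 left out of the totals. Per mapped read it was 0.371%, since the denominator then holds reads that were not counted at genes. It was 0.830% or 0.914% when either library was left out. TMM and DESeq2 scaling left the count of members outside counting error at 2. Detected members numbered 4 to 6 and members outside counting error 2 or 3 under every alternative run; the third is Mir363, when the filter on low values is dropped. The share of Mir363 in its cluster rested on animal 1, at 10.2% there and 0% in animal 2. Its log2 ratio of 1.98 depended on the pseudocount, at 4.93 with 0.1 and 0.67 with 5, and is no bound. Mir25, at -0.04 in log2, became 0.01 with Mir139 left out, inside counting error in both. Under the same change Mir92b went from 0.11 to 0.17, above its counting interval of 0.09 to 0.14. Depth limits Mir32, Mir92-2, Mir25 and Mir363, and reads shared by the miR-92a genes limit Mir92-1 and Mir92-2. No paired analysis was possible because there is a single group.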
